A study of Homo sapiens with 36 samples.

Results

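Docosahexaenoic acid (DHA) given alone for 24 h was compared with a vehicle control in HepG2 cells, an established human hepatoma line. The samples were taken by their labelled treatment and time: 3 libraries of DHA at 24 h and 3 of the vehicle control (Ctrl) at 24 h, 6 of the 36 libraries of the series. The replicate number in the labels was used as a pairing factor, as the study ran 3 independent cell cultures. The other libraries received propionate (PRO), protocatechuic acid (PCA), or DHA with either of them, or were collected at 6 h. The question was which transcripts changed when the cells took up DHA without a second compound.

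DHA was given at 50 µM as a complex with bovine serum albumin (BSA), from an ethanol stock, in serum-free DMEM. Ctrl cells were given matching BSA, ethanol and DMSO in the same medium, and their label names DMSO/BSA. DMSO was the solvent of PCA, and the study does not state whether cells given DHA alone received it. In the other groups of the series PRO was given at 70 µM and PCA at 20 µM. Each library pooled the RNA of replicate wells from 1 culture. A hepatoma line keeps much of the secretory programme of hepatocytes but proliferates, and it is 1 cell line, so n = 3 counts cultures and not donors.

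DHA is the long-chain omega-3 fatty acid that liver cells take up, esterify and, in part, oxidise. Genes of cholesterol and fatty acid synthesis share the sterol regulatory element-binding proteins (SREBPs), membrane-bound transcription factors that are released by proteolysis when sterols in the endoplasmic reticulum are low, and unsaturated fatty acids are known to lower the activity of SREBP-1 in liver. The double bonds of DHA oxidise readily, and products of lipid peroxidation are known to activate NRF2, the transcription factor of antioxidant and aldehyde-detoxifying enzymes.

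Total counts lay between 5973164 and 7541114 in the Ctrl libraries and between 6038100 and 8397200 in the DHA libraries. The label HepG2 was checked against its markers: ALB stood at 26672, 24633 and 28526 CPM in the Ctrl libraries and 24232, 25746 and 26038 CPM in the DHA libraries, and AFP, the fetal albumin-like protein that hepatomas express, at 10545, 9018 and 9799.6 CPM in the Ctrl libraries and 9555, 8946 and 8824 CPM in the DHA libraries. Of 27 markers of blood, endothelial, stromal and biliary cells, 5 had 0 counts in all 6 libraries (PTPRC, CD163, CD3E, KRT7 and HBB) and 13 stayed under 1 CPM in each. Others were well expressed in both groups, with highest values of 2231 CPM for LYZ, 417 for SOX9, 299.8 for KRT19, 190.4 for EPCAM, 52.5 for ACTA2 and 51.4 for CD68. These highest values and the limit of 1 CPM used the total count of each library. All other CPM are counts scaled to a common library size after TMM scaling. The 13 markers tested summed to 2908 to 3230 CPM in Ctrl and 2618 to 2831 CPM with DHA. The collagen genes COL1A1, COL1A2 and COL3A1 had 75, 61 and 59 counts in DHA replicate 2 and at most 35, 10 and 15 in the other 5 libraries, and their part in the results was not tested. One library of the wider fit stood apart in depth, DHA + PRO replicate 2 with 42326734 counts.

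DHA changed 77 of the 11893 genes tested at 24 h (0.647%), where a change means an adjusted p of at most 0.05 in edgeR's quasi-likelihood test with the replicate number in the model and an average log2 CPM above 0. Of these, 58 fell (0.488% of the genes tested) and 19 rose (0.16%). In bulk RNA, fewer cells of a type and less RNA per cell cannot be told apart. By the gene lists used here, 28 of the falls were lipid genes, 18 of them enzymes of cholesterol and fatty acid synthesis. Among the rises 13 were aldo-keto reductases, antioxidant genes or metallothioneins. Most changes were smaller than a doubling: the median log2 fold change was -0.52 among the falls (range -1.43 to -0.27) and 0.61 among the rises (0.35 to 1.16), and 5 of the 77 passed 1 in size. Summed over the 58 genes that fell, the mean level went from 24546 CPM in Ctrl to 17348 CPM with DHA. Summed over the 19 that rose, it went from 2672 to 3758 CPM. All 77 moved in the same direction in each of the 3 Ctrl and DHA pairs, which holds for 32.3% of all genes tested. The test used the same pairs, so genes whose pairs agree are more readily called. In 72 of the 77 the 3 DHA and 3 Ctrl values did not overlap, against 10.7% of all genes tested, although a gene with separated groups is also more readily called.

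**Figure D1:**
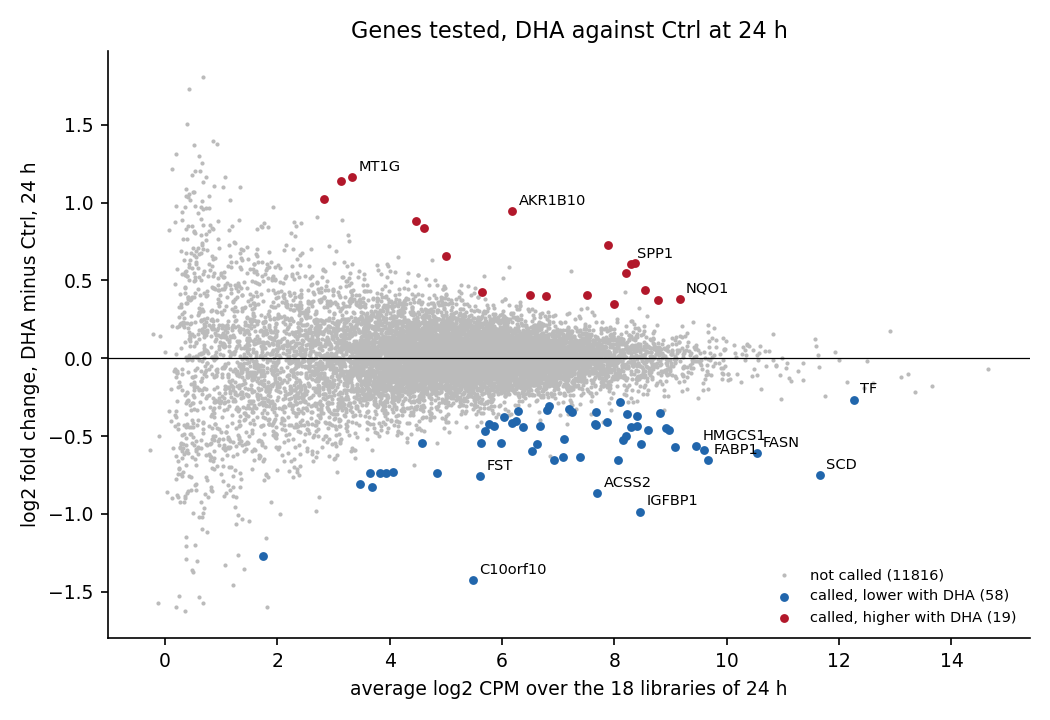
Each point is 1 of 11893 genes, with its average log2 CPM over the 18 libraries of 24 h on the x axis and its log2 fold change, DHA minus Ctrl at 24 h, on the y axis. Blue points are the 58 genes that fell, red points the 19 that rose and grey points the others, and the well-expressed SCD, FASN and HMGCS1 stand below the grey band.

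Without the replicate number in the model 23 genes were called (3 higher, 20 lower), all of them among the 77. With each of the 6 libraries left out in turn, 22 of the 77 were called every time (3 higher, 19 lower), and 17 were called in all of these fits and without the replicate number. The count was 46 without DHA replicate 2, which held the collagen counts, 28 to 50 over the 6 libraries left out, and 52 without the deep DHA + PRO library. The 22 genes included SPP1, AKR1C2 and AKR1B10 among the rises and C10orf10, IGFBP1, ACSS2, AGR2, FST, SCD, FABP1, FADS2, FDFT1, ELOVL6, FDPS, ACACA, CTGF, ACLY, FADS1 and ACAT2 among the falls. For the other genes below, the libraries that decided the call are given with the highest adjusted p.

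The mevalonate pathway, which turns acetyl-CoA into farnesyl pyrophosphate, was lower with DHA. Of its 9 measured enzymes 5 fell and none rose, with a median log2 fold change of -0.44 against 0.01 over all genes tested. Without the replicate number 4 of the 9 were called. HMGCS1 (chr5:43287572-43313614 in hg19), the cytosolic synthase of hydroxymethylglutaryl-CoA, stood at 871, 905 and 837 CPM in the Ctrl libraries and 596, 672 and 501 CPM in the DHA libraries. Its DHA values did not overlap with Ctrl but spread more widely, with replicate 3 lowest, and it fell by 32.4% (log2 fold change -0.56 ± 0.11 SE, adjusted p = 0.00773). The call of HMGCS1 was lost without DHA replicate 1 or 3 or Ctrl replicate 2 or 3 (adjusted p up to 0.0915).

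FDPS, the farnesyl pyrophosphate synthase, had 310.2, 308 and 342 CPM in the Ctrl libraries and 217, 212 and 240.03 CPM in the DHA libraries, and it fell by 30.4% (log2 fold change -0.52 ± 0.07 SE, adjusted p = 9.9e-05). ACAT2, the cytosolic thiolase that opens the pathway, had 387, 356 and 420.2 CPM in the Ctrl libraries and 285, 286 and 286 CPM in the DHA libraries. Its 3 DHA libraries were nearly equal and below every Ctrl library, and it fell by 26.2% (log2 fold change -0.44 ± 0.07 SE, adjusted p = 0.00117), although its gene overlaps TCP1 on the other strand and the library kit does not mark strand. MVD, the decarboxylase, had 316, 364 and 349.997 CPM in the Ctrl libraries and 203, 209 and 243 CPM in the DHA libraries. Both groups were apart, and MVD fell by 36.5% (log2 fold change -0.65 ± 0.14 SE, adjusted p = 0.0233), a call lost without DHA replicate 1 or 2 or Ctrl replicate 1, 2 or 3 (adjusted p up to 0.206). The isomerase IDI1 was not called, at a log2 fold change of -0.41 (adjusted p = 0.0781). It had 292, 281 and 238 CPM in the Ctrl libraries and 198, 240.1 and 171 CPM in the DHA libraries, and its groups overlapped at replicate 2 of DHA. DESeq2, an alternative test with the replicate number, did call IDI1. The kinase MVK had a log2 fold change of -0.34 (adjusted p = 0.204), with the 3 DHA values below the 3 Ctrl values. GGPS1, at -0.10, and PMVK, at 0.02, were not called either.

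From squalene onwards to cholesterol, 7 of 12 enzymes fell and none rose. All 12 had a log2 fold change below 0, with a median of -0.41. Only 1 of them, FDFT1, was called without the replicate number. FDFT1 (chr8:11653082-11696818), the squalene synthase that commits farnesyl pyrophosphate to sterols, stood at 930.3, 895 and 979 CPM in the Ctrl libraries and 599.5, 617 and 647 CPM in the DHA libraries. No DHA value came near the lowest Ctrl value, and FDFT1 fell by 33.5% (log2 fold change -0.59 ± 0.06 SE, adjusted p = 1.84e-06). LSS, the cyclase that forms lanosterol, had 80.4, 130.3 and 127 CPM in the Ctrl libraries and 62.5, 75.3 and 83.9 CPM in the DHA libraries. Here Ctrl replicate 1 was low and lay below DHA replicate 3, while every DHA library was below the Ctrl library of its own number. LSS fell by 33.9% (log2 fold change -0.60 ± 0.11 SE, adjusted p = 0.00451), and its call was lost without DHA replicate 2 or Ctrl replicate 2 or 3 (adjusted p up to 0.0775).

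CYP51A1, the lanosterol demethylase, had 253, 259 and 228 CPM in the Ctrl libraries and 179.6, 205 and 165 CPM in the DHA libraries and fell by 25.7% (log2 fold change -0.43 ± 0.07 SE, adjusted p = 0.0032). MSMO1, the sterol methyl oxidase of the next steps, had 410.1, 444 and 369.6 CPM in the Ctrl libraries and 316, 353 and 276 CPM in the DHA libraries. In both genes DHA replicate 3 was the lowest and Ctrl replicate 3 was the lowest of its group too. MSMO1 fell by 22.8% (log2 fold change -0.37 ± 0.07 SE, adjusted p = 0.0113). SQLE, the squalene epoxidase, had 493, 511 and 510.5 CPM in the Ctrl libraries and 405, 414 and 368 CPM in the DHA libraries and fell by 21.8% (log2 fold change -0.35 ± 0.07 SE, adjusted p = 0.0105). DHCR7, the last reductase of the pathway, fell by 26.6% (log2 fold change -0.45 ± 0.08 SE, adjusted p = 0.00436), and NSDHL, the sterol dehydrogenase, fell by 25% (log2 fold change -0.41 ± 0.08 SE, adjusted p = 0.015). The calls were lost without DHA replicate 1 (adjusted p up to 0.0532) for CYP51A1, without DHA replicate 1 or 3 or Ctrl replicate 1 or 2 (adjusted p up to 0.124) for MSMO1 and without DHA replicate 1 or 3 or Ctrl replicate 3 (adjusted p up to 0.137) for SQLE. They were lost without DHA replicate 1 or Ctrl replicate 2 (adjusted p up to 0.0695) for DHCR7 and without DHA replicate 1, 2 or 3 or Ctrl replicate 1 or 2 (adjusted p up to 0.183) for NSDHL. Among the members not called, the log2 fold changes were -0.42 (adjusted p = 0.0509) for TM7SF2, -0.36 (adjusted p = 0.138) for SC5D and -0.30 (adjusted p = 0.0667) for EBP. In each of these the 3 DHA values lay below the 3 Ctrl values, and DESeq2 called TM7SF2 and EBP but not SC5D.

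Fatty acid synthesis from acetate and citrate fell as well. Of 9 measured genes 6 fell and none rose, all 6 of them also without the replicate number, and the median log2 fold change was -0.52. SCD (chr10:102106772-102124588), the desaturase that makes oleate, was the most abundant of them, at 4066, 4192 and 4153 CPM in the Ctrl libraries and 2516, 2439 and 2413 CPM in the DHA libraries. The values within each group differed little beside the gap between the groups. SCD fell by 40.6% (log2 fold change -0.75 ± 0.06 SE, adjusted p = 1e-08), the lowest adjusted p of all genes tested. ACSS2 (chr20:33462766-33515769), which makes cytosolic acetyl-CoA from acetate, stood at 273, 286 and 254 CPM in the Ctrl libraries and 147, 149.97 and 149.6 CPM in the DHA libraries. The 3 DHA libraries agreed within a few CPM, and ACSS2 fell by 45.1% (log2 fold change -0.87 ± 0.07 SE, adjusted p = 1.15e-07).

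FASN (chr17:80036214-80056106), the multi-domain synthase that builds palmitate, had 1681, 1998 and 1880.3 CPM in the Ctrl libraries and 1185, 1108 and 1346 CPM in the DHA libraries. The groups were apart by more than the spread within either, and FASN fell by 34.5% (log2 fold change -0.61 ± 0.12 SE, adjusted p = 0.00721), yet its call was lost without DHA replicate 1 or 2 or Ctrl replicate 2 or 3 (adjusted p up to 0.108). ACACA, the acetyl-CoA carboxylase that makes malonyl-CoA, had 143, 161 and 157 CPM in the Ctrl libraries and 108, 105 and 109 CPM in the DHA libraries and fell by 30.1% (log2 fold change -0.52 ± 0.08 SE, adjusted p = 0.000537). ACLY, which cleaves citrate to acetyl-CoA in the cytosol, had 551, 591 and 598 CPM in the Ctrl libraries and 414, 429 and 419.6 CPM in the DHA libraries and fell by 27.4% (log2 fold change -0.46 ± 0.06 SE, adjusted p = 9.12e-05). ELOVL6, the elongase of palmitate, had 123, 119 and 114 CPM in the Ctrl libraries and 81.9, 76.1 and 85.4 CPM in the DHA libraries and fell by 31.7% (log2 fold change -0.55 ± 0.09 SE, adjusted p = 0.00142). In these last 3 genes every DHA library was below every Ctrl library. The citrate carrier SLC25A1 had a log2 fold change of -0.09 and was not called.

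Among 12 desaturases and elongases outside that list, 2 fell, none rose and the median was 0.01, that of all genes tested. The 2 were the desaturases that make long-chain polyunsaturated fatty acids, DHA among them, from dietary precursors. FADS2 had 184, 219.6 and 216 CPM in the Ctrl libraries and 137, 119 and 144 CPM in the DHA libraries and fell by 35.5% (log2 fold change -0.63 ± 0.11 SE, adjusted p = 0.00229). FADS1 had 375, 319.7 and 398 CPM in the Ctrl libraries and 263, 263 and 276 CPM in the DHA libraries and fell by 26.4% (log2 fold change -0.44 ± 0.07 SE, adjusted p = 0.000884). Neither gene had an overlap between the groups, but the genes lie head to head on opposite strands of chromosome 11, where their starts overlap, so reads of the shared part cannot be told apart. The elongase ELOVL5 had a log2 fold change of -0.14 (adjusted p = 0.653).

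Of the 8 genes of the SREBP machinery, 1 fell and none rose. SREBF1 (chr17:17714663-17740325), which encodes SREBP-1, had 161, 142 and 156 CPM in the Ctrl libraries and 97.7, 77.6 and 116 CPM in the DHA libraries. DHA replicate 3 was the closest to Ctrl and replicate 2 the farthest, with no overlap. SREBF1 fell by 36.5% (log2 fold change -0.66 ± 0.13 SE, adjusted p = 0.0134), a call lost without DHA replicate 1 or 2 or Ctrl replicate 2 or 3 (adjusted p up to 0.186). Its end overlaps that of RAI1 on the other strand, and without the replicate number its adjusted p was 0.145. SREBF2, which encodes SREBP-2, had 291, 326 and 337 CPM in the Ctrl libraries and 256, 273 and 301 CPM in the DHA libraries and was not called at a log2 fold change of -0.20 (adjusted p = 0.442). INSIG2, which retains the SREBPs in the endoplasmic reticulum, had -0.26 (adjusted p = 0.366).

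In LDL uptake and sterol traffic 4 of 13 genes fell and none rose, 3 of them without the replicate number, and the median was -0.22. TMEM97, a membrane protein that binds the lysosomal sterol exporter NPC1, fell by 22% (log2 fold change -0.36 ± 0.07 SE, adjusted p = 0.00558), and NPC1 itself fell by 19% (log2 fold change -0.30 ± 0.07 SE, adjusted p = 0.0446). For TMEM97 the call was lost without DHA replicate 1 or 3 or Ctrl replicate 1 (adjusted p up to 0.0847), and for NPC1, whose groups overlapped, with any 1 of the 6 libraries left out (adjusted p 0.118 to 0.25). Both share part of their position with a gene on the other strand (IFT20 and C18orf8). SCARB1, the receptor for high-density lipoprotein, had a log2 fold change of -0.02 and was not called.

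Of 14 genes for fatty acid binding, uptake and activation 2 fell and none rose. FABP1 (chr2:88422508-88427650), the fatty acid-binding protein of the hepatocyte cytosol, had 1032, 828 and 917 CPM in the Ctrl libraries and 627, 542 and 596 CPM in the DHA libraries. It had the highest mean level per length among the lipid genes in the plot by library below, going from 1644 to 1045 RPKM (CPM per kilobase of counted length), and it fell by 36.5% (log2 fold change -0.65 ± 0.09 SE, adjusted p = 0.000152). ACSL3, which activates fatty acids at lipid droplets, had 343, 330.2 and 353 CPM in the Ctrl libraries and 247, 239 and 241 CPM in the DHA libraries and fell by 29.3% (log2 fold change -0.50 ± 0.09 SE, adjusted p = 0.0039), a call lost without Ctrl replicate 3 (adjusted p up to 0.0688). ACSL4, the ligase with a preference for polyunsaturated fatty acids, had 540.03, 515 and 474 CPM in the Ctrl libraries and 457, 417 and 344 CPM in the DHA libraries, apart in both groups but not called at -0.34 (adjusted p = 0.216). Of 24 genes of glycerolipid and phospholipid synthesis 1 fell, LPIN1, the phosphatidate phosphatase, with 68.5, 67.8 and 57.6 CPM in the Ctrl libraries and 48.3, 52.1 and 39.2 CPM in the DHA libraries (log2 fold change -0.47 ± 0.11 SE, adjusted p = 0.0446). This call was lost without DHA replicate 1 or 3 or Ctrl replicate 1, 2 or 3 (adjusted p up to 0.296).

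**Figure D2:**
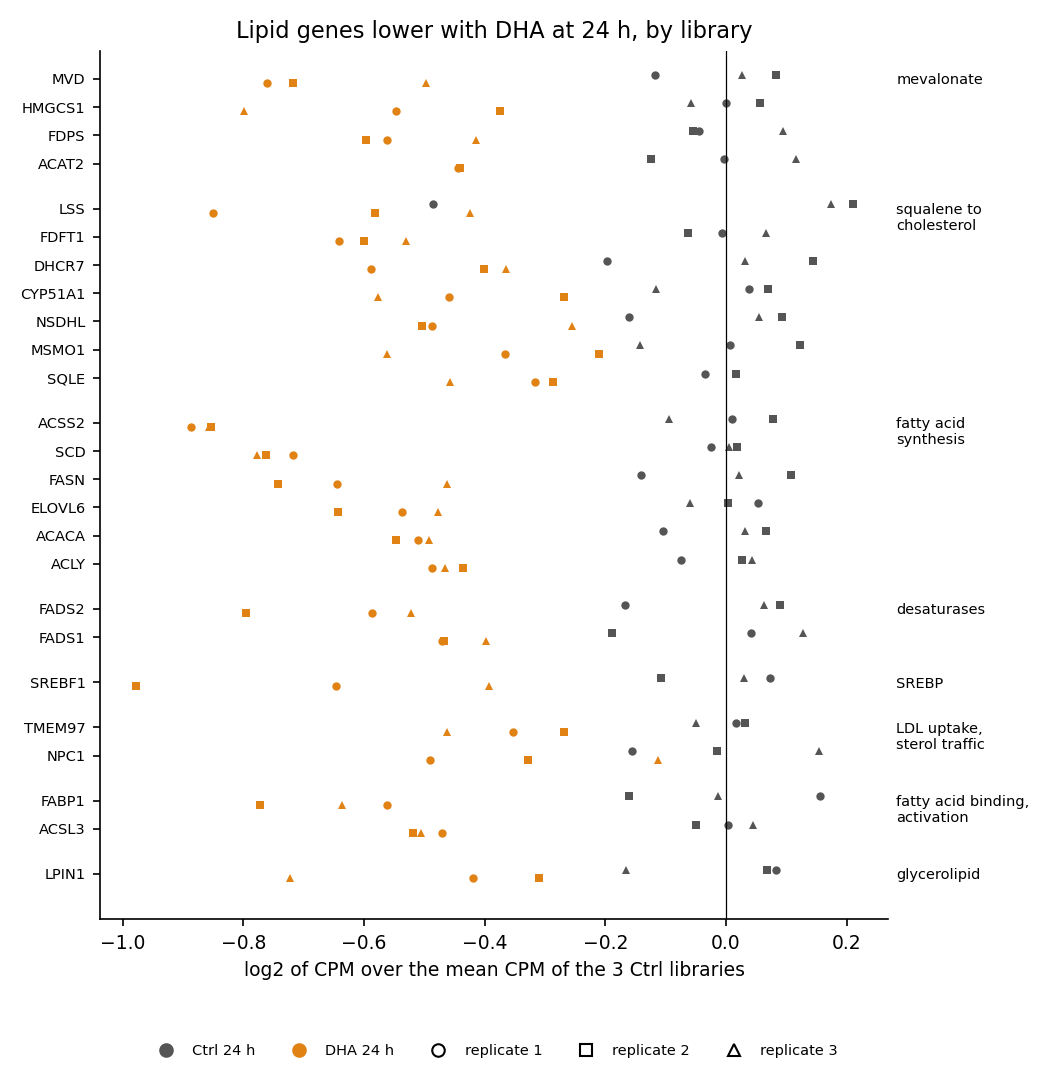
Rows are 25 lipid genes that fell, and each symbol is 1 library, placed by the log2 of its CPM over the mean of the 3 Ctrl libraries (Ctrl grey, DHA orange, circle, square and triangle for replicates 1, 2 and 3). All orange symbols lie left of 0, and they meet the grey ones only in LSS and NPC1.

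Because these enzymes moved together, the 250 bases before the start of their genes were read from the RefSeq promoter table (GRCh38.p14), which held 59 of the 77 called genes and 9762 of the 11893 tested. SREBPs act beside the factor NF-Y, whose motif is CCAAT. This motif was present on either strand in 7 of the 8 called cholesterol synthesis genes with a window, in 3 of the 7 called genes of fatty acid synthesis and desaturation, and in 35.5% of all 9762 windows. It was also present in 7 of the 13 windows of genes that rose. The sterol response element in the form TCACNCCAC was found in none of these 15 windows and in 0.84% of all. The windows of MSMO1, ACLY and ACSS2 are shown, which lie before the deposited gene start or reach at most 26 bases past it, with CCAAT or its complement ATTGG in capitals. They were placed by exact match in GRCh37, at chr4:166248571-166248820 (+ strand), chr17:40075276-40075525 (- strand) and chr20:33462542-33462791 (+ strand).
MSMO1: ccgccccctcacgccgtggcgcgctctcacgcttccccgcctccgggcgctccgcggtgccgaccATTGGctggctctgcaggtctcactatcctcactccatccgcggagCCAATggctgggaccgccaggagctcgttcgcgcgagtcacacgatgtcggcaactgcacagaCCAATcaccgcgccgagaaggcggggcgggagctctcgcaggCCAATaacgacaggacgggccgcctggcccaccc
ACLY: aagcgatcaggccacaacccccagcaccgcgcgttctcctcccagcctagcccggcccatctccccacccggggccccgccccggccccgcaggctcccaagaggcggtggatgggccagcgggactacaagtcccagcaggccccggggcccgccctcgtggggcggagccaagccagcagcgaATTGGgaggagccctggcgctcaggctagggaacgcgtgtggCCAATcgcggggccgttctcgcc
ACSS2: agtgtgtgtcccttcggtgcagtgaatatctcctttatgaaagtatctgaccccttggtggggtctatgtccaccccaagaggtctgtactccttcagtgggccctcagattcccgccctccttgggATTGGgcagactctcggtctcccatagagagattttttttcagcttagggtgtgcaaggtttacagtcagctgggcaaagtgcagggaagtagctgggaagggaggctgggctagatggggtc

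On the rising side, the aldo-keto reductases formed the main group. These cytosolic enzymes reduce reactive aldehydes, ketosteroids and prostaglandins. Of 11 measured members 6 rose and none fell, 2 of them also without the replicate number, with a median of 0.48 over the list. AKR1B10 (chr7:134212344-134226166), which reduces lipid aldehydes and retinal, had 36.7, 46.1 and 52.6 CPM in the Ctrl libraries and 83.2, 82.2 and 95.03 CPM in the DHA libraries. The DHA values were well above all Ctrl values, and AKR1B10 rose by 92.7% (log2 fold change 0.95 ± 0.10 SE, adjusted p = 6.41e-06). Its neighbour AKR1B15 had 3.99, 4.18 and 5.51 CPM in the Ctrl libraries and 11.4, 9.12 and 9.94 CPM in the DHA libraries and rose by 121% (log2 fold change 1.14 ± 0.21 SE, adjusted p = 0.00448), a call lost without DHA replicate 1 (adjusted p up to 0.061). The genes are close copies, and reads may have been shared between them.

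The AKR1C genes, hydroxysteroid dehydrogenases in a cluster on chromosome 10, are also close copies of each other, and the split of reads among them is uncertain. AKR1C2 had 146, 167 and 179.6 CPM in the Ctrl libraries and 223, 321 and 269 CPM in the DHA libraries and rose by 65.5% (log2 fold change 0.73 ± 0.11 SE, adjusted p = 0.000588). This rise is against Ctrl of the same time: in the 3 Ctrl libraries of 6 h, scaled apart from those of 24 h, AKR1C2 had 893, 861 and 902 CPM. AKR1C1 had 201, 274 and 249 CPM in the Ctrl libraries and 284, 437 and 391 CPM in the DHA libraries and rose by 52.9% (log2 fold change 0.61 ± 0.11 SE, adjusted p = 0.00436). In both, replicate 1 was the lowest library of DHA and of Ctrl, and the groups were apart by less than the spread within DHA. AKR1C3 rose by 27.6% (log2 fold change 0.35 ± 0.07 SE, adjusted p = 0.0182), and AKR1C4, a bile acid enzyme of liver and the 1 riser of 12 bile acid genes, rose by 57.9% (log2 fold change 0.66 ± 0.15 SE, adjusted p = 0.0446) with overlapping groups. The calls were lost without DHA replicate 2 or Ctrl replicate 3 (adjusted p up to 0.0851) for AKR1C1, without DHA replicate 1 or 2 or Ctrl replicate 2 or 3 (adjusted p up to 0.223) for AKR1C3 and without DHA replicate 1 or 2 or Ctrl replicate 1, 2 or 3 (adjusted p up to 0.537) for AKR1C4. Of the members not called, AKR1A1 had a log2 fold change of -0.06 and AKR1B1 of 0.14.

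Some NRF2 targets rose. Of 25 measured genes of this list 4 rose and none fell, 23 had a log2 fold change above 0, and the median was 0.27. No member was called without the replicate number. NQO1 (chr16:69743304-69760571), the quinone reductase used as a marker of NRF2, had 456, 496 and 472 CPM in the Ctrl libraries and 642, 608 and 605 CPM in the DHA libraries. All DHA libraries exceeded all Ctrl libraries, and NQO1 rose by 30.2% (log2 fold change 0.38 ± 0.07 SE, adjusted p = 0.00448). TXNRD1, the thioredoxin reductase, had 150.4, 151 and 166 CPM in the Ctrl libraries and 217, 196 and 204 CPM in the DHA libraries and rose by 32.3% (log2 fold change 0.40 ± 0.07 SE, adjusted p = 0.00494). GCLC, the catalytic subunit that limits glutathione synthesis, had 73.5, 80.8 and 80.99 CPM in the Ctrl libraries and 104, 111 and 96.9 CPM in the DHA libraries and rose by 32.3% (log2 fold change 0.40 ± 0.09 SE, adjusted p = 0.0252).

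OSGIN1, an oxidative stress-induced growth inhibitor, had 13.5, 14.03 and 21.5 CPM in the Ctrl libraries and 27.2, 27.6 and 32.1 CPM in the DHA libraries and rose by 78.6% (log2 fold change 0.84 ± 0.15 SE, adjusted p = 0.00448). These calls were lost without DHA replicate 1 or Ctrl replicate 1 or 3 (adjusted p up to 0.0932) for NQO1, without DHA replicate 1 or Ctrl replicate 1 (adjusted p up to 0.0938) for TXNRD1, without DHA replicate 1 or 2 or Ctrl replicate 1, 2 or 3 (adjusted p up to 0.204) for GCLC and without DHA replicate 1 or Ctrl replicate 2 (adjusted p up to 0.0594) for OSGIN1. The abundant ferritin chain FTH1, with a log2 fold change of 0.20 (adjusted p = 0.298), and the peroxiredoxin PRDX1, with 0.21 (adjusted p = 0.169), were not called. Of 21 glutathione S-transferases and peroxidases 1 rose, GPX2, a selenium-dependent glutathione peroxidase, at 344, 372 and 326 CPM in the Ctrl libraries and 432, 461 and 462 CPM in the DHA libraries (log2 fold change 0.38 ± 0.08 SE, adjusted p = 0.0311), a call lost without DHA replicate 1, 2 or 3 or Ctrl replicate 1 or 3 (adjusted p up to 0.296). The antioxidant response element was searched as TGACNNNGC on both strands: it was present in 2 of the 13 windows of genes that rose (GPX2 and TXNRD1), in 3 of the 46 of genes that fell and in 12.1% of all 9762. The window of TXNRD1 ends at the deposited gene start (chr12:104609307-104609556 in GRCh37, + strand) and is shown with the match in capitals.
TXNRD1: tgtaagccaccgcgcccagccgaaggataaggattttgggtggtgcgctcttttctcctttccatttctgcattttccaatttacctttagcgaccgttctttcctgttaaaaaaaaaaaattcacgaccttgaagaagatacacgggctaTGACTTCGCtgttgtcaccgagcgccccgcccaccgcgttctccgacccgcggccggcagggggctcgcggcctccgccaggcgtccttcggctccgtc

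Metallothioneins, small cysteine-rich proteins that bind zinc and copper, stood at low levels at 24 h. In the 3 Ctrl libraries of 6 h, scaled apart, MT1E had 73.5, 63 and 40.2 CPM. Of 10 genes in the list, zinc transporters included, 2 rose and none fell, 9 had a log2 fold change above 0, and the median was 0.55. MT1G (chr16:56700647-56701977) had 5.82, 8.96 and 3.89 CPM in the Ctrl libraries and 17.6, 13.6 and 11.1 CPM in the DHA libraries and rose by 124% (log2 fold change 1.16 ± 0.24 SE, adjusted p = 0.0163), the largest rise among the called genes. MT1E had 18.1, 20.9 and 11.01 CPM in the Ctrl libraries and 30.6, 39.7 and 20.7 CPM in the DHA libraries and rose by 84.1% (log2 fold change 0.88 ± 0.20 SE, adjusted p = 0.0446). Every DHA library was above the Ctrl library of its number in both, while DHA replicate 3 of MT1E lay within the Ctrl range. The calls were lost without DHA replicate 1 or 2 or Ctrl replicate 1 or 3 (adjusted p up to 0.233) for MT1G and without DHA replicate 1 or 2 or Ctrl replicate 1 or 3 (adjusted p up to 0.485) for MT1E, and none was made without the replicate number. MT2A, the most abundant metallothionein, had 25.8, 36.1 and 19.1 CPM in the Ctrl libraries and 39.2, 38.7 and 27.6 CPM in the DHA libraries, and was not called at 0.39 (adjusted p = 0.427). Sequences of this family are alike, so reads may be split among its genes.

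**Figure D3:**
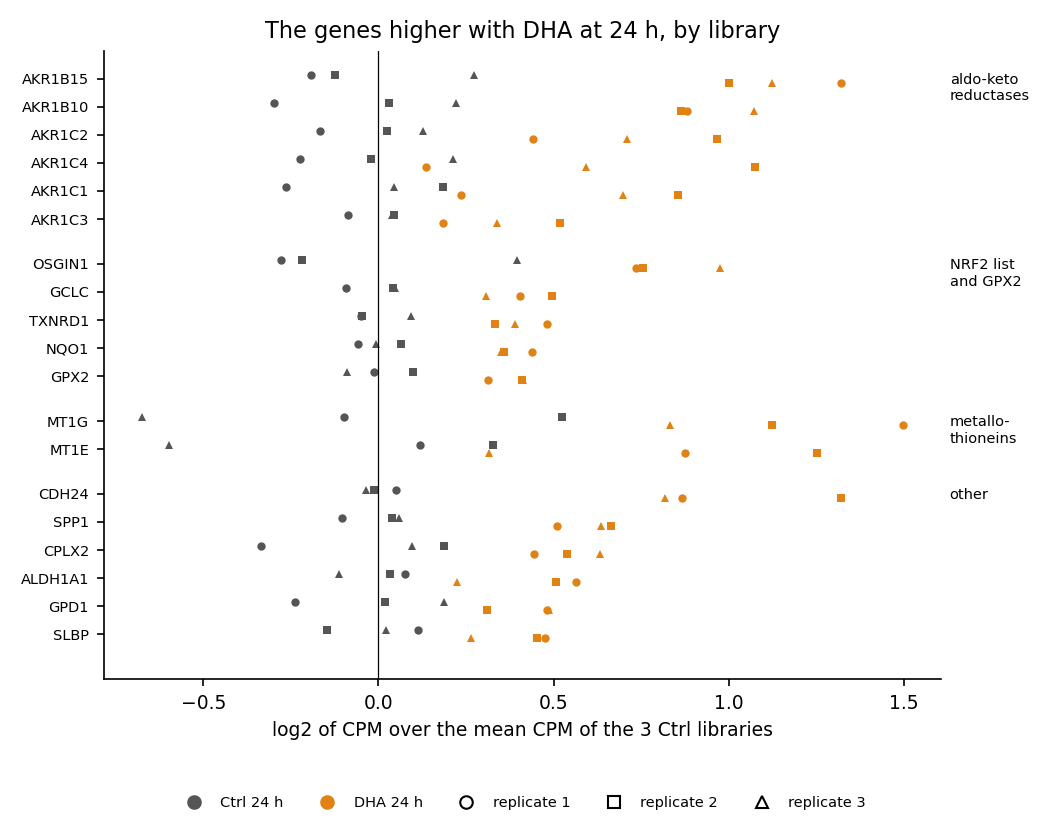
The 19 genes that rose are rows, and each symbol is 1 library, placed by the log2 of its CPM over the mean of the 3 Ctrl libraries (Ctrl grey, DHA orange, circle, square and triangle for replicates 1, 2 and 3). All orange symbols lie right of 0, and they meet the grey ones only in AKR1C4 and MT1E.

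Among secreted and matrix proteins most called genes fell. Of 22 genes in this list 5 fell and 1 rose, 2 of them called without the replicate number, and the median was -0.27. IGFBP1 (chr7:45927959-45933267), a binding protein of insulin-like growth factors that fasting raises in liver, had 459, 505 and 539 CPM in the Ctrl libraries and 186, 273 and 321 CPM in the DHA libraries. DHA replicate 1 was the lowest, the groups did not overlap, and IGFBP1 fell by 49.5% (log2 fold change -0.98 ± 0.16 SE, adjusted p = 0.00127), although without the replicate number its adjusted p was 0.38. FST, which encodes the activin antagonist follistatin, had 54.9, 73.9 and 69.97 CPM in the Ctrl libraries and 31.1, 44.3 and 42.6 CPM in the DHA libraries and fell by 40.9% (log2 fold change -0.76 ± 0.11 SE, adjusted p = 0.000217). AGR2, a protein disulfide isomerase of secretory cells, had 16.6, 20.003 and 17.1 CPM in the Ctrl libraries and 9.12, 10.8 and 10.4 CPM in the DHA libraries and fell by 43.6% (log2 fold change -0.83 ± 0.15 SE, adjusted p = 0.00448).

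The matricellular gene CTGF had 450.1, 527 and 492 CPM in the Ctrl libraries and 324, 416 and 333 CPM in the DHA libraries and fell by 27.4% (log2 fold change -0.46 ± 0.07 SE, adjusted p = 0.000297). Its relative CYR61 had 16.3, 21.3 and 14.9 CPM in the Ctrl libraries and 11.6, 10.4 and 9.65 CPM in the DHA libraries and fell by 40% (log2 fold change -0.74 ± 0.17 SE, adjusted p = 0.0446), a call lost with any 1 of the 6 libraries left out (adjusted p 0.057 to 0.363). SPP1 (chr4:88896802-88904563), which encodes osteopontin, was the riser of the list, with 199, 219.7 and 223 CPM in the Ctrl libraries and 305, 339 and 332 CPM in the DHA libraries. The 3 DHA values lay well above Ctrl, and SPP1 rose by 52.2% (log2 fold change 0.61 ± 0.07 SE, adjusted p = 4.97e-05). Fibronectin, FN1, the most abundant member, had a log2 fold change of -0.22 (adjusted p = 0.169).

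The largest fall among the called genes was in C10orf10 (chr10:45471709-45474330), a gene known as a target of FOXO factors. It had 55.2, 66.6 and 83.3 CPM in the Ctrl libraries and 15.6, 28.6 and 35.1 CPM in the DHA libraries, and each DHA library stood below the lowest Ctrl library. C10orf10 fell by 62.8% (log2 fold change -1.43 ± 0.18 SE, adjusted p = 6.23e-05). Replicate 1 was the lowest library of both groups, and without the replicate number the adjusted p was 0.203. The gene overlaps RASSF4 on the other strand. The secreted phospholipase PLA2G3 was low, at 5.98, 4.93 and 5.1 CPM in the Ctrl libraries and 3.42, 1.52 and 1.87 CPM in the DHA libraries, and fell by 58.5% (log2 fold change -1.27 ± 0.30 SE, adjusted p = 0.0446), a call lost with any 1 of the 6 libraries left out (adjusted p 0.0582 to 0.242).

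MIA2, which takes part in the export of large cargo from the endoplasmic reticulum, had 18.4, 13.9 and 15.3 CPM in the Ctrl libraries and 8.3, 9.7 and 9.22 CPM in the DHA libraries (log2 fold change -0.80 ± 0.18 SE, adjusted p = 0.038). FAXDC2, a member of the fatty acid hydroxylase family, had 30.1, 42.2 and 39.2 CPM in the Ctrl libraries and 15.1, 26.1 and 26.6 CPM in the DHA libraries (log2 fold change -0.74 ± 0.16 SE, adjusted p = 0.0285). The receptor P2RY8 had 16.3, 18.96 and 15.98 CPM in the Ctrl libraries and 7.49, 10.6 and 12.8 CPM in the DHA libraries (log2 fold change -0.73 ± 0.17 SE, adjusted p = 0.0397). In these 3 genes the groups did not overlap, but the calls were lost without DHA replicate 1, 2 or 3 or Ctrl replicate 1 or 3 (adjusted p up to 0.38) for MIA2, without DHA replicate 1 or 2 or Ctrl replicate 1 or 3 (adjusted p up to 0.296) for FAXDC2 and without DHA replicate 1 or 2 or Ctrl replicate 1 or 2 (adjusted p up to 0.294) for P2RY8. PDGFRB, a receptor that marks stromal cells, was the 1 gene edgeR called among the 13 tested markers of other cell types, with 17.3, 19.6 and 21.5 CPM in the Ctrl libraries and 10.1, 11.9 and 12.96 CPM in the DHA libraries (log2 fold change -0.74 ± 0.16 SE, adjusted p = 0.0329). Its call was lost with any 1 of the 6 libraries left out (adjusted p 0.0905 to 0.206). DESeq2 called PDGFRB and also LYZ among these markers. Other stromal markers differed in level, with 237 to 413 counts per library for ACTA2, 12 to 32 for RGS5 and 0 to 75 for COL1A1, and at most 3 for DCN and 1 for LUM. Their part in the value of PDGFRB was not tested.

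Among the remaining rises, CDH24, a cadherin, had 4.99, 4.78 and 4.7 CPM in the Ctrl libraries and 8.79, 12.04 and 8.5 CPM in the DHA libraries (log2 fold change 1.03 ± 0.22 SE, adjusted p = 0.025). CPLX2, a complexin of vesicle fusion, had 179, 256 and 241 CPM in the Ctrl libraries and 307, 327 and 349 CPM in the DHA libraries (log2 fold change 0.55 ± 0.09 SE, adjusted p = 0.00228). Neither gene showed an overlap, and the calls were lost without DHA replicate 2 or 3 or Ctrl replicate 1, 2 or 3 (adjusted p up to 0.271) for CDH24 and without Ctrl replicate 1 (adjusted p up to 0.0529) for CPLX2. ALDH1A1, the retinaldehyde dehydrogenase, rose by 35.6% (log2 fold change 0.44 ± 0.10 SE, adjusted p = 0.0413), and GPD1, the cytosolic glycerol-3-phosphate dehydrogenase, rose by 34.2% (log2 fold change 0.42 ± 0.10 SE, adjusted p = 0.0482). Their calls were lost without DHA replicate 1 or 2 or Ctrl replicate 1 or 3 (adjusted p up to 0.341) for ALDH1A1 and with any 1 of the 6 libraries left out (adjusted p 0.0705 to 0.45) for GPD1.

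In 4 further lists a single gene fell. CCDC152, whose gene overlaps the selenoprotein P gene SEPP1 on the other strand and had 199.8 counts on average against 3696 for SEPP1, fell by 31.4% (log2 fold change -0.54 ± 0.13 SE, adjusted p = 0.0468), and its call was lost with any 1 of the 6 libraries left out (adjusted p 0.0699 to 0.38). SEPP1 had a log2 fold change of -0.24 (adjusted p = 0.151). SAT1, the spermidine acetyltransferase and the 1 gene of 11 called in the list of iron and lipid peroxidation, fell by 24.8% (log2 fold change -0.41 ± 0.08 SE, adjusted p = 0.00476), with the call lost without DHA replicate 3 or Ctrl replicate 1 or 2 (adjusted p up to 0.0592). TF, which encodes transferrin and was the most abundant gene called, had 5319, 4969.6 and 5719 CPM in the Ctrl libraries and 4294, 4308 and 4713 CPM in the DHA libraries and fell by 16.8% (log2 fold change -0.27 ± 0.06 SE, adjusted p = 0.0455). It was the 1 called of 24 plasma carriers and of 16 hepatocyte markers, and its call was lost without DHA replicate 1, 2 or 3 or Ctrl replicate 1 or 3 (adjusted p up to 0.389).

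The other 16 genes that fell were in none of the gene lists, so C14orf1 was not counted above as a lipid gene although it acts in sterol synthesis. C14orf1, a scaffold of sterol C4-demethylation, had 255, 244 and 206 CPM in the Ctrl libraries and 181, 189.8 and 155 CPM in the DHA libraries (log2 fold change -0.42 ± 0.08 SE, adjusted p = 0.0105), and its call was lost without DHA replicate 1 or 3 or Ctrl replicate 1 or 2 (adjusted p up to 0.148). PRSS8, a membrane serine protease, had 20.3, 18.2 and 21.1 CPM in the Ctrl libraries and 11.7, 11.2 and 12.96 CPM in the DHA libraries (log2 fold change -0.73 ± 0.15 SE, adjusted p = 0.0113), and its call was lost without DHA replicate 1, 2 or 3 or Ctrl replicate 1 or 3 (adjusted p up to 0.103). Both genes were apart between the groups. TP53INP2 (-0.54), AKAP12 (-0.54), NCR3LG1 (-0.44) and ITGA2 (-0.40) followed, each as a log2 fold change. CLCN6 (-0.44), FILIP1L (-0.43), ERV3-1 (-0.42) and ZFC3H1 (-0.38) share part of their position with another gene and are uncertain. SORL1 (-0.35), FZD4 (-0.35), TPCN1 (-0.34), DST (-0.34), RAB5B (-0.32) and UBR4 (-0.28) were the smallest of these 16. SLBP, which binds histone mRNA, was the remaining rise, with 101, 84.2 and 94.7 CPM in the Ctrl libraries and 129.6, 128 and 112 CPM in the DHA libraries (log2 fold change 0.40 ± 0.10 SE, adjusted p = 0.0482) and a call lost with any 1 of the 6 libraries left out (adjusted p 0.0824 to 0.334). The calls of ITGA2, ERV3-1, DST, RAB5B and UBR4 were lost with any 1 of the 6 libraries left out, with adjusted p up to 0.323, 0.398, 0.304, 0.389 and 0.319. They were lost without DHA replicate 1 or 2 or Ctrl replicate 1 (adjusted p up to 0.0776) for TP53INP2, without DHA replicate 1, 2 or 3 or Ctrl replicate 1 or 2 (adjusted p up to 0.31) for AKAP12 and without DHA replicate 1, 2 or 3 or Ctrl replicate 2 or 3 (adjusted p up to 0.349) for NCR3LG1. The same held without DHA replicate 1 or 3 or Ctrl replicate 1 or 2 (adjusted p up to 0.158) for CLCN6, without DHA replicate 1, 2 or 3 or Ctrl replicate 1 or 3 (adjusted p up to 0.4) for FILIP1L and without DHA replicate 1, 2 or 3 or Ctrl replicate 1 or 2 (adjusted p up to 0.389) for ZFC3H1, and also without DHA replicate 1, 2 or 3 or Ctrl replicate 1 or 3 (adjusted p up to 0.306) for SORL1, without DHA replicate 1 or 2 or Ctrl replicate 1, 2 or 3 (adjusted p up to 0.411) for FZD4 and without DHA replicate 1 or 2 or Ctrl replicate 1, 2 or 3 (adjusted p up to 0.296) for TPCN1.

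Of the 37 gene lists, 18 held no called gene at 24 h. They held 504 genes in all, none of them among the 94 that DESeq2 called. In edgeR 68 of the 504 had an unadjusted p under 0.05, a larger share than the 1102 of all 11893 genes tested. The fits with more calls, the 6 libraries alone (195) and the GC offset (191), were not checked for these lists. In fatty acid oxidation and other targets of the PPARs, the nuclear receptors that fatty acids bind, 0 of 29 genes were called by edgeR, 6 had an unadjusted p under 0.05 and the median was 0.08. CPT1A, the carnitine transferase that admits fatty acids to mitochondria, had 8.31, 11.05 and 9 CPM in the Ctrl libraries and 8.14, 10.8 and 11.5 CPM in the DHA libraries, and PLIN2, the lipid droplet coat protein, had 311, 323 and 338 CPM in the Ctrl libraries and 315, 345 and 356 CPM in the DHA libraries, both overlapping between the groups and both named after their values were seen. No gene was called of 14 for lipid droplets (median 0.02), 16 for apolipoproteins (-0.01), 8 for LXR and sterol efflux (-0.13), 20 for gluconeogenesis, glycolysis and glycogen (-0.11) and 25 for complement and coagulation (-0.07). The same held for 24 genes of ATF4 and ER stress (-0.07), 14 heat shock genes (0.01), 14 immediate early genes (-0.16), 12 of the xenobiotic response (-0.04) and 24 of p53 and apoptosis (-0.01).

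Of the 40 DNA replication genes 35 had a log2 fold change above 0 and 5 below, with a median of 0.13, 9 at an unadjusted p under 0.05 and none called, whereas the 40 mitosis genes had a median of -0.03. Of 14 serine, glycine and one-carbon enzymes 12 lay above 0 (median 0.15), and of 24 genes of branched-chain amino acid and threonine degradation 15 did (0.03), again without a call. The large housekeeping lists had medians near that of all genes, with 0.04 for 76 ribosomal proteins, 0.05 for 76 respiratory chain subunits and 0.04 for 37 proteasome subunits. Most of their genes still lay above 0, with 54, 57 and 29 in that order, against 6112 of all 11893 genes tested.

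**Figure D4:**
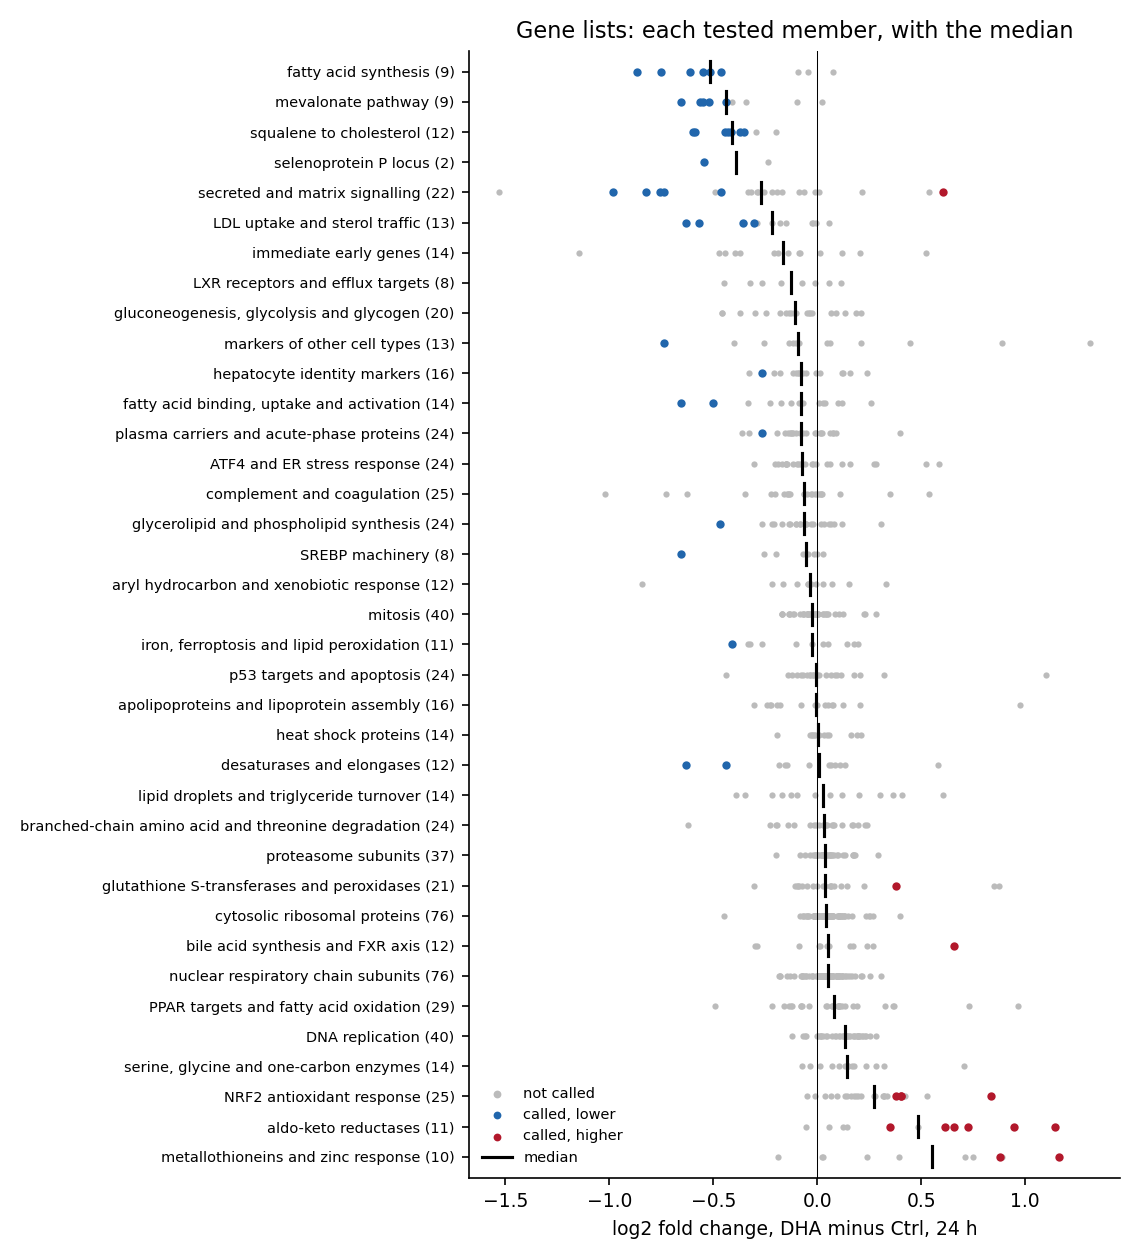
Each row is 1 of the 37 gene lists with the number of its tested genes, each point is 1 gene at its log2 fold change, DHA minus Ctrl at 24 h, and the black bar is the median. Blue and red points are called falls and rises, and the lists of fatty acid synthesis (median -0.52) and metallothioneins (0.55) stand at the 2 ends.

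The DHA effect could be read again in the 24 h libraries with PRO or PCA in both arms. They were not part of the contrast above, but the fit behind the 77 calls took its spread from all 18 libraries of 24 h, these included. DHA + PRO against PRO changed 99 of 11893 genes (0.832%), and DHA + PCA against PCA changed 79 (0.664%). Without the replicate number these counts were 27 and 33, and with replicate 2 left out, which holds the deep DHA + PRO library, the first was 637. Of the 77 genes, 76 had the same sign on top of PRO and 77 on top of PCA, against 54.9% and 61.1% of all genes tested. On top of PRO 40 of the 77 (and of the 99 called there) were called, and on top of PCA 48 (of 79). All 3 comparisons called 34 genes, 25 lower and 9 higher, while 23 were called with DHA alone and in neither other comparison. The median log2 fold change of the 58 falls was -0.43 on top of PRO and -0.46 on top of PCA, against -0.52 with DHA alone. For the 19 rises these medians were 0.46 and 0.42, against 0.61. The 77 were chosen by their change with DHA alone, which in itself brings medians in other libraries nearer 0 and lowers the number called there. These values therefore do not show a weaker effect with PRO or PCA. These libraries came from cultures with the same replicate numbers and were fitted together with the first 6.

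SCD had a log2 fold change of -0.61 ± 0.06 on top of PRO and -0.73 ± 0.06 on top of PCA, with a difference from DHA alone of 0.15 ± 0.08 (adjusted p = 0.644) for PRO. SPP1 had 0.64 ± 0.07 and 0.72 ± 0.07, and AKR1B10 0.86 ± 0.10 and 0.85 ± 0.10. HMGCS1 had -0.95 ± 0.11 on top of PRO, more than with DHA alone, but the difference of -0.39 ± 0.15 (adjusted p = 0.528) did not pass the test. Its level in PRO replicate 1 was high, at 1145 CPM against 790 and 881 CPM in PRO replicates 2 and 3. FABP1 had values nearer 0 in both, -0.26 ± 0.09 and -0.32 ± 0.09, with differences of 0.39 ± 0.13 (adjusted p = 0.42) for PRO and 0.34 ± 0.13 (adjusted p = 0.999) for PCA. SLBP was the 1 gene with the opposite sign on top of PRO, at -0.04 ± 0.09 against 0.40 with DHA alone. In edgeR's test of the difference itself no gene passed for PRO (lowest adjusted p = 0.217, with 991 genes at an unadjusted p under 0.05) or for PCA (lowest adjusted p = 0.999, 401 genes). Without the replicate number it was 0 for both, with 595 and 210 genes at an unadjusted p under 0.05.

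At 6 h, in other libraries, DHA changed 18 of 11872 genes (0.152%), 12 lower and 6 higher. Without the replicate number 2 were called, and without replicate 3 none was. Of the 77 genes of 24 h, 74 had the same sign at 6 h, against 55.2% of all genes measured at both times, and 12 were called at both. Most changes were smaller at 6 h, with medians of -0.25 for the 58 falls and 0.23 for the 19 rises. Choosing the genes by their change at 24 h in itself brings these medians nearer 0. Sterol genes were already lower: MSMO1 had 249, 217 and 214 CPM in the 3 Ctrl libraries of 6 h and 137, 127 and 123 CPM in the 3 DHA libraries of 6 h (log2 fold change -0.81 ± 0.09 SE, adjusted p = 4.31e-05). HMGCS1 was also called at 6 h (log2 fold change -0.79 ± 0.09 SE, adjusted p = 4.31e-05). IDI1 was called at 6 h (log2 fold change -0.63 ± 0.09 SE, adjusted p = 0.00158) but not at 24 h in edgeR, although DESeq2 called it at 24 h. STARD4, a sterol carrier (log2 fold change -0.61 ± 0.12 SE, adjusted p = 0.0209), and BHLHE40, a clock-related repressor (log2 fold change -0.79 ± 0.14 SE, adjusted p = 0.0159), were also called at 6 h and not at 24 h. This last pair was named after their values were seen. Neither IDI1 nor this pair was among the genes whose effect differed between the times. The metallothioneins MT1E, MT1G, MT1F, MT1X and MT2A were all called higher at 6 h, with log2 fold changes of 0.79, 0.88, 0.81, 0.82 and 0.90.

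Between the times, 3 of 12046 genes (0.0249%) differed in their DHA effect. SPP1 had 339.99, 187 and 245 CPM in the 3 Ctrl libraries of 6 h and 359, 194 and 223 CPM in the 3 DHA libraries of 6 h, with overlapping groups (log2 fold change -0.0025 ± 0.07 SE, adjusted p = 0.996), and the change of its effect from 6 h to 24 h was 0.60 ± 0.10 (adjusted p = 0.0114). ACSS2 had 142, 96.1 and 113 CPM in the 3 Ctrl libraries of 6 h and 123, 78.9 and 84.99 CPM in the 3 DHA libraries of 6 h (log2 fold change -0.30 ± 0.08 SE, adjusted p = 0.383), with a change of -0.58 ± 0.10 (adjusted p = 0.0114). FST had 57.2, 40.04 and 50.2 CPM in the 3 Ctrl libraries of 6 h and 64.8, 41.3 and 47.5 CPM in the 3 DHA libraries of 6 h (log2 fold change 0.06 ± 0.10 SE, adjusted p = 0.896), with a change of -0.83 ± 0.15 (adjusted p = 0.0114). Without the replicate number none of the 3 passed (adjusted p = 0.999), nor did any of them with replicate 1, 2 or 3 left out (adjusted p from 0.162 to 0.995).

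**Figure D5:**
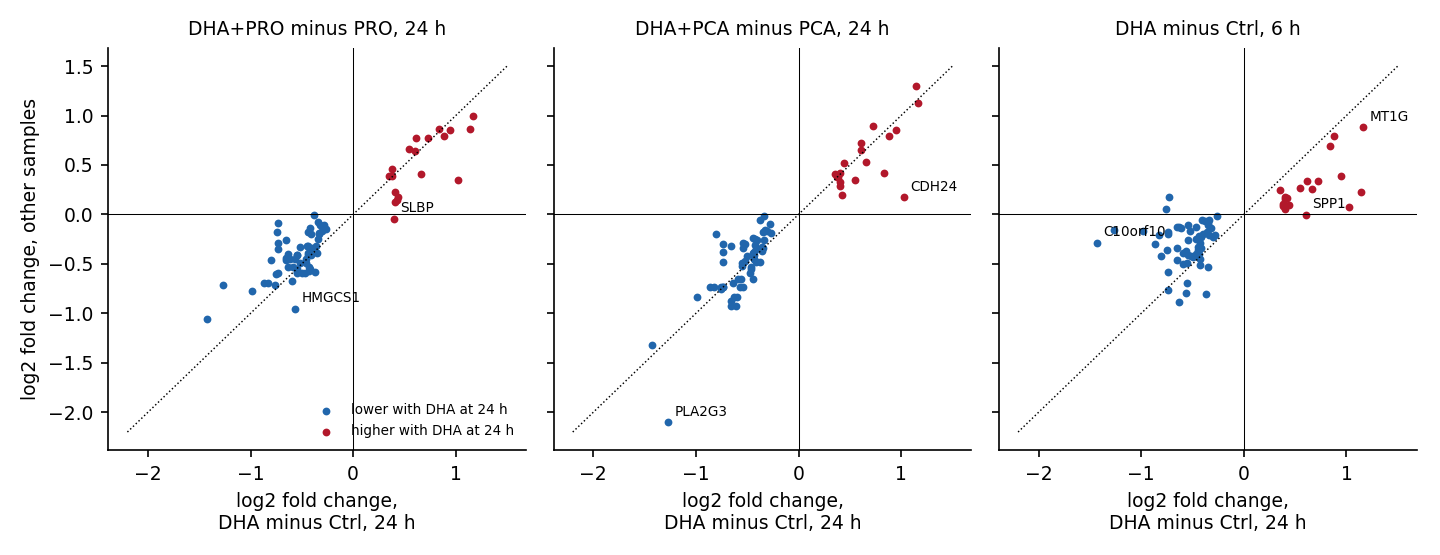
Each point is 1 of the 77 genes called with DHA alone at 24 h, with that log2 fold change on the x axis and, on the y axis, its log2 fold change in DHA + PRO against PRO at 24 h, DHA + PCA against PCA at 24 h and DHA against Ctrl at 6 h. Blue genes fell and red genes rose at 24 h, the dotted line marks equal effects, and the medians of the 58 falls are -0.43, -0.46 and -0.25 in the 3 panels.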

How the data were processed

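Treatment of HepG2 cells lasted 6 or 24 h in 3 cultures, and RNA was sequenced with a kit that does not mark strand (TruSeq RNA v2, HiSeq1500). The authors aligned reads with STAR to hg19 and deposited raw read counts per RefSeq gene (18932 genes, counted with iRNA-seq). Versions are not given in the sources used here.

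Genes that passed filterByExpr over the 18 libraries of 24 h (11893) were fitted in edgeR 4.0.16 (R 4.3.3) with TMM scaling, the quasi-likelihood test, all 6 groups and the replicate number as a block. Calls needed a Benjamini-Hochberg adjusted p no higher than 0.05, and the average log2 CPM had to exceed 0. DHA at 6 h was fitted likewise over that time's libraries, and the time difference over all 36. Standard errors came from the fold change and its F statistic. CPM used the TMM-scaled library sizes, and RPKM also the counted length. The members of the comparison and the gene lists were chosen with earlier results of these data known.

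The genes named were the lipid genes the study measured or described, the 12 largest rises and falls whose groups did not overlap, called members of the gene lists with up to 4 abundant members that were not called, and genes whose effect differed with time. Some members that the rule covers are not reported here, though counts and medians include them. The pairing came from the comparison's own definition. Same-numbered DHA and Ctrl libraries deviated together with correlations of 0.228, 0.0614 and 0.321, so the data did not establish the pairing for every number, and counts without it are printed. At 24 h all libraries of replicate 3 carry later library numbers than the others, which the block absorbs. No 2 libraries of the comparison agreed within sampling noise (lowest chi-square per degree of freedom 3.85).

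Alternatives were no block, DESeq2 1.42.0, other scalings and filters, the 6 libraries alone, a GC offset and each library left out. Simulated counts with known changes were used to check the fit. The blocked fit found 100% of the genes given a log2 change of 1 and 67% of those given 0.5, with 10 false calls. The fit without the block found 99% and 41%, with 0 false calls. These counts were drawn with a replicate effect and with 1 spread for all genes, and only genes above a low mean CPM were changed. The gain from the block was thus built in, and the shares found need not hold for the real counts. At 5973164 to 8397200 counts per library, low genes are measured with wide counting error. With the replicate number in the model, p-values rest on the spread left after group and replicate number are fitted. Differences shared by all libraries of 1 replicate number are taken out of it. In the main comparison that spread came from the 18 libraries of 24 h, all from 3 cultures of 1 line.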

Additional observations from a re-analysis of the deposited data

Results flagged for a closer look

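SPP1, ACSS2 and FST were the genes whose DHA effect differed between 24 h and 6 h in edgeR's test of the difference itself. For SPP1 the effect at 24 h minus that at 6 h was 0.60 ± 0.10 on the log2 scale, for ACSS2 it was -0.579 ± 0.10 and for FST -0.825 ± 0.15, each with an adjusted p of 0.0114. All 3 calls were lost without the replicate block (adjusted p = 0.999). They were also lost without replicate 1 (0.336, 0.82 and 0.655), replicate 2 (0.162, 0.381 and 0.162) and replicate 3 (0.995, 0.74 and 0.74), in the order SPP1, ACSS2 and FST.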

How the results depend on the processing

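The 77 genes called with DHA at 24 h kept their direction under every alternative run. Each of them had the same direction in all 3 pairs, and the alternatives reused these libraries, so a reversal was hardly possible. The number of genes called was 74 with DESeq2's size factors, 78 with upper quartile scaling, 94 with DESeq2's test, 109 with no filter and 76 above an average log2 CPM of 2. It was 23 with no replicate block, 195 with the 6 libraries of the comparison alone and 191 with a GC offset and the block (93.8% of the genes had a GC value). The share of falls among the calls was 75.3%, but 87% with no block, 63.1% with 6 libraries and 64.4% with the GC offset. With 1 library or replicate number left out it was 16 to 70 genes, and without the deep DHA + PRO library, tried after the data were seen, 52. Leaving out DHA replicates 1, 2 and 3 ended 49, 39 and 31 of the 77 calls, and Ctrl replicates 42, 35 and 39. The 99 genes on top of PRO became 27 with no block and 28 to 637 with a replicate number left out. The 79 on top of PCA became 33 and 22 to 71. The difference with PRO, with 0 genes, had 0 to 3. The 18 genes of 6 h became 2 with no block and 0 to 15, and the 3 genes that differed with time became 0 and 0 to 1. CPT1A, at a log2 fold change of 0.0994, was -0.0617 without Ctrl replicate 3 and -0.0411 without replicate 3, in a range up to 0.183 over libraries left out. PLIN2, at 0.0624, was -0.00282 without Ctrl replicate 2, in a range up to 0.114. The cause of these shifts was not tested. Genes changed by 0.5 on the log2 scale were called in 67% of simulated cases, so smaller changes can be missed at this depth and number of cultures.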
